A study of Mus musculus with 9 samples.

Results

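The protein genes of the cytosolic ribosome were examined in mouse mammary epithelial cells exposed to 660 nm light. They were taken from the count table by symbol: every row whose name starts with Rpl or Rps and a digit, the stalk genes Rplp0 to Rplp2, and Rpsa. Names marked as pseudogenes (-ps) and the S6 kinases (Rps6k) were left out, which gave 93 of the 54532 rows of the table. Of these, 77 were core ribosomal proteins, with 31 in the small 40S subunit and 46 in the large 60S subunit. Another 15 were paralogues or copies of core genes, and Rps19bp1, which binds the ribosomal protein Rps19 and is not part of the ribosome, was taken in by its name.

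The cells were HC11, an established mouse mammary epithelial line with C57BL/6 in the strain label, grown in serum-containing medium and given no genetic change. The groups were EpPT1 and EpPT2, both exposed to 660 nm light, and untreated Ctrl cells, with 3 libraries in each. Fluence is labelled as 10 J/cm2 in EpPT1 samples and as 20 J/cm2 in EpPT2 samples. The protocol text has 0.5 and 1 J/cm2 instead, with a laser of 10 mW, and no dose is therefore attached to a group below. How long after exposure the cells were lysed is not stated in the labels. The labels do not say whether the 3 libraries of a group are separate cultures, and a p-value here measures the spread between these libraries alone.

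Each ribosome holds 1 copy of nearly every ribosomal protein, and the mRNAs of these proteins are among the most abundant of a growing cell. Most vertebrate ribosomal protein mRNAs begin with a terminal oligopyrimidine (TOP) tract, a C at the cap followed by a run of C and T, through which mTORC1 and the RNA-binding protein Larp1 control their translation and stability. The genes have also left many processed pseudogenes, intronless copies made from mRNA, so reads of a ribosomal protein gene can often be placed at several loci. Changes in translation are not measured by RNA-seq of total RNA.

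The starts of 5 members that recur below and of Rpl35a are shown because they carry a run of C and T like that of a TOP tract. They are 30-base windows around the RefSeq transcription start on GRCm38.p6, written 5′ to 3′ on the gene's strand, with the longest run of C and T that opens with C in capitals. The windows lie at chr7:4792950-4792979 (+) for Rpl28, chr16:33056467-33056496 (+) for Rpl35a, chr17:27635230-27635259 (-) for Rps10, chr4:86857353-86857382 (-) for Rps6, chr3:90213634-90213663 (-) for Rps27 and chr9:114982725-114982754 (-) for Rps27rt.
Rpl28: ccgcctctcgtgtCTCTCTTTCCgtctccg
Rpl35a: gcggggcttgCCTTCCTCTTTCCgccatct
Rps10: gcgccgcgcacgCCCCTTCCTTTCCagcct
Rps6: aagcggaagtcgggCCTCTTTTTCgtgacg
Rps27: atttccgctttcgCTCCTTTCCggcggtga
Rps27rt: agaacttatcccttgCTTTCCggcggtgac

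A tract of at least 6 bases, C followed by C or T only, was found on the gene's strand between 15 bases before and 50 bases after the start in 56 of the 68 member genes that RefSeq's table holds (82.4%). Among the core genes it was found in 49 of 57 (86.0%), and among all 27025 genes with such a window in 45.8%. The letters CTTTCC were found in 27.9% of the member genes, against 3.46% of all genes. A match describes the letters of this window and is not a measured TOP start. The Rps27 and Rps27rt windows share the run CTTTCCGGCGGTGA of 14 bases, and the coding sequences of the pair are identical over all 252 bases, so reads from either gene cannot be told apart there.

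Across the 9 libraries, total counts were 14549787 to 17228929 and the mitochondrial share of counts was 2.74 to 7.48%. It was low (2.74 to 3.62%) in EpPT1 replicates 1 and 2, EpPT2 replicate 1 and Ctrl replicates 1 and 2. It was high (6.06 to 7.48%) in the other 4, so it crosses the groups, with more of the high libraries in EpPT2. A second feature touches many results below: EpPT1 replicate 1 lay apart from the other EpPT1 libraries and near Ctrl for many members. The luminal keratins Krt8 and Krt18 made up most of a luminal marker sum of 2237 to 2841 CPM (counts scaled to the library's total) in EpPT1, 2304 to 2823 in EpPT2 and 1761 to 2941 in Ctrl, whereas the epithelial genes Cdh1, Cldn7 and Esrp1 were under 1 CPM in every library. The fibroblast list, nearly all Dcn with Thy1 at 0 counts, summed to 744 to 2097 CPM in EpPT1, 761 to 2123 in EpPT2 and 1302 to 3296 in Ctrl. Sums were 231 to 409 CPM for the fat cell list (mostly Lpl), 5.34 to 24.5 CPM for the basal list, 13.3 to 114 CPM for the blood and immune list (mostly Cd68, with Adgre1 at 0) and 23.0 to 104 CPM for milk protein genes (mostly Csn3, with Wap, Csn2 and Lalba at 0). The part of these differences in the results below was not tested.

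As a class, the ribosomal protein genes took overlapping shares of the counts in all 3 groups. Member rows held 6.93, 7.64 and 5.78% of all counts in the EpPT1 libraries, 7.66, 6.05 and 6.11% in the EpPT2 libraries and 6.81, 7.10 and 6.28% in the Ctrl libraries. The groups overlapped, with 6.78 ± 0.937% in EpPT1, 6.61 ± 0.916% in EpPT2 and 6.73 ± 0.416% in Ctrl (SD, n = 3 each). The share went with the mitochondrial share instead: it was 6.81 to 7.66% in the 5 libraries with few mitochondrial counts and 5.78 to 6.28% in the other 4. With mitochondrial counts taken out of the total, the shares were still 7.01 to 7.93% in the 5 libraries and 6.21 to 6.79% in the other 4. As a sum, the share weighs abundant rows most. The median log2(CPM + 0.5) of tested members overlapped, at 9.16 to 9.57 in the 5 libraries and 9.22 to 9.32 in the other 4. In bulk RNA, fewer cells of a type and less RNA per cell cannot be told apart.

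The balance of the subunits was given by the ratio of 60S to 40S core counts. It was 1.17, 1.22 and 1.20 in EpPT1, 1.21, 1.23 and 1.21 in EpPT2 and 1.12, 1.18 and 1.14 in Ctrl. All EpPT2 libraries lay above all Ctrl libraries, and EpPT1 overlapped both. No test was run on this ratio, since it is a score over the members. As a ratio of summed counts it weighs abundant rows most. The 40S rows Rps26 and Rps12 averaged 4519 and 1452 CPM in Ctrl and 2706 and 696 CPM in EpPT2. Medians by gene ran the other way. For EpPT2 against Ctrl the median log2 difference was 0.16 over the core 40S genes and 0.004 over the core 60S genes.

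**Figure D1:**
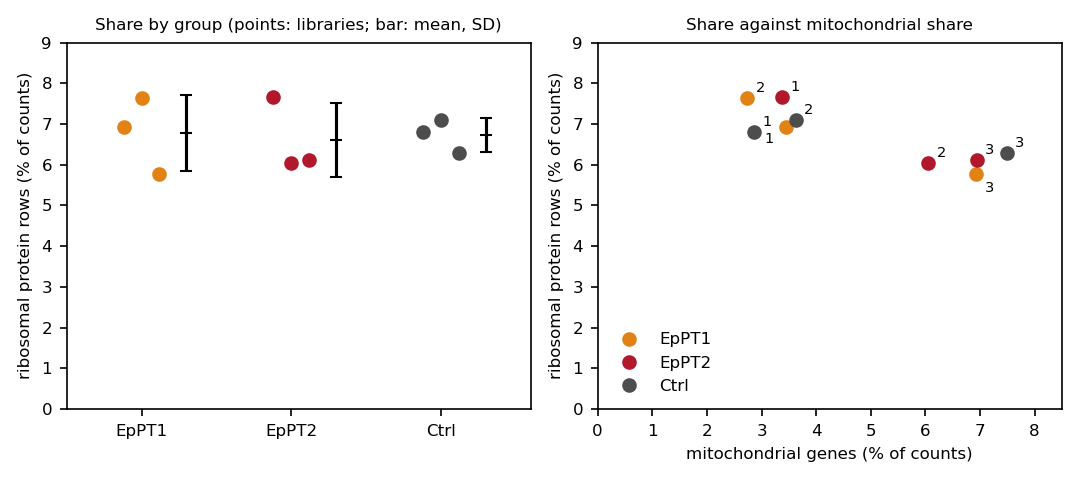
Share of each library's counts on ribosomal protein genes (percent), by group with the mean and SD on the left and against the mitochondrial share of counts (percent) on the right, 1 point per library. The 5 libraries with a low mitochondrial share sit at 6.81 to 7.66% and the other 4 at 5.78 to 6.28%, whichever group they belong to.

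Levels differed far more between the members than between the groups. Per kilobase of mRNA, on the CPM per kb scale, core genes had a median level of 916, and the 5 highest were Rpl41 with 5634, Rps26 with 5165, Rps12 with 2134, Rps14 with 2083 and Rpl32 with 2080. Rpl41 and Rps26 were also the top pair by the authors' gene length and by coding length, while the next 3 differed with the length used. Rps14 and Rpl32 differed by far less than the spread of either over the libraries, which was 1258 to 2814 CPM per kb for Rps14 and 1512 to 2601 for Rpl32, so these neighbours do not differ beyond their spread. The 10 members with the most counts held 30.6% of all member counts.

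Rpl41, the shortest protein of the 60S subunit, had 3063, 2997 and 1621 CPM in EpPT1, 3109, 1846 and 2190 CPM in EpPT2 and 2587, 2957 and 1788 CPM in Ctrl. The 3 groups overlapped, and the fitted log2 difference was 0.07 (SE 0.31) for EpPT1 against Ctrl and -0.04 (SE 0.31) for EpPT2 against Ctrl. Every library with a low mitochondrial share lay above every library with a high share. At the low end were Rpl24 with 5.75, the annotated pseudogene Rps3a3 with 5.36 and Rpl36al, a paralogue of Rpl36a, with 4.89 CPM per kb.

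**Figure D2:**
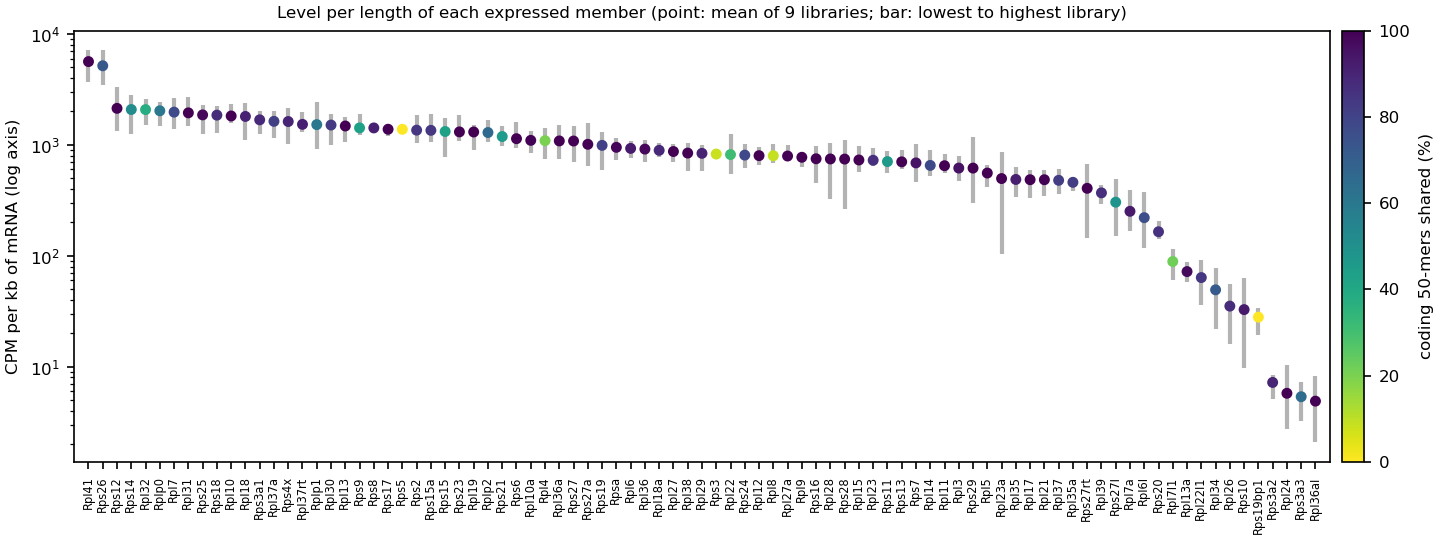
Level of each expressed ribosomal protein gene on a log axis in CPM per kb of mRNA, as the mean of the 9 libraries (point) and their range (bar), coloured by the percent of coding 50-base stretches shared with another gene. Rpl41 (5634) and Rps26 (5165) stand at the top, and the lowest core genes are Rpl24, Rps10, Rpl26, Rpl34 and Rpl13a, with overlapping ranges for Rpl34 and Rpl13a.

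The 4 core genes under 30 CPM share most or all of their coding sequence with other rows. Over all core genes, 29 of 77 had every 50-base stretch of coding sequence in common with another gene of the annotation, and 10 had under 50% in common. Rps10, a 40S protein, had 11.4, 10.0 and 31.6 CPM in EpPT1, 14.7, 26.3 and 22.4 CPM in EpPT2 and 4.84, 7.77 and 17.6 CPM in Ctrl. Its annotated pseudogene Rps10-ps2 had 88.1, 210 and 206 CPM in EpPT1, 239, 200 and 205 CPM in EpPT2 and 86.9, 110 and 106 CPM in Ctrl. The pseudogene row thus held more counts than the gene in every library, with EpPT1 replicate 1 at the Ctrl level. RPS10-NUDT3, annotated as protein_coding, also holds 91.3% of the coding stretches of Rps10.

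Rpl34, a 60S protein, had 10.6, 23.0 and 37.3 CPM in EpPT1, 24.4, 34.2 and 32.0 CPM in EpPT2 and 14.02, 13.8 and 23.8 CPM in Ctrl. Rpl34-ps1 had 375, 502 and 342 CPM in EpPT1, 464, 390 and 413 CPM in EpPT2 and 424, 407 and 409 CPM in Ctrl. All EpPT2 values of Rpl34 lay above all Ctrl values, whereas the groups overlapped for its pseudogene. Rpl24, another 60S protein, had 1.85, 1.98 and 5.55 CPM in EpPT1, 2.68, 5.21 and 6.92 CPM in EpPT2 and 1.86, 2.03 and 6.98 CPM in Ctrl. Its high values were in the 4 libraries with a high mitochondrial share, in every group. Gm9385, which holds 88.2% of the coding stretches of Rpl24, averaged 3.39 CPM, against 3.90 CPM for Rpl24.

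Rpl26, a 60S protein and a known regulator of p53 translation, had fewer counts than a near-identical copy. The gene lies at chr11:68901583-68906989 (+), and the processed pseudogene Gm15772 at chr5:3236431-3236868 (+) differs from its coding sequence at 2 of 435 bases. Counted from the A of the start codon, these are C177T and T288C, with the Rpl26 base first. Coding bases 157 to 308 of both are shown on GRCm38, with the differing bases in capitals.
Rpl26: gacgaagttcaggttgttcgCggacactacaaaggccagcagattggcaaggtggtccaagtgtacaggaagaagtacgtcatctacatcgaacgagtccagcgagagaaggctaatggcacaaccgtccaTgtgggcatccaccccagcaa
Gm15772: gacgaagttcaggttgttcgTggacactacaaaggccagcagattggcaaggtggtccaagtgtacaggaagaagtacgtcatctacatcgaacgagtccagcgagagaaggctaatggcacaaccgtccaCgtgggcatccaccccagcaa

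Rpl26 itself had 8.43, 28.7 and 22.5 CPM in EpPT1, 29.3, 23.9 and 22.8 CPM in EpPT2 and 9.12, 8.67 and 13.1 CPM in Ctrl. Gm15772 had 1450, 979 and 837 CPM in EpPT1, 1019, 906 and 942 CPM in EpPT2 and 1367, 1347 and 1755 CPM in Ctrl. The gene row was higher and the copy lower in all EpPT2 libraries than in all Ctrl libraries, so the rows ran in opposite directions. For the row of Rpl26 the log2 difference of EpPT2 against Ctrl was 1.30 (SE 0.41), with a Benjamini-Hochberg adjusted p of 0.376 in edgeR's quasi-likelihood test. With its near copies summed it was -0.61 (SE 0.24, adjusted p 0.386). Neither passed the test.

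The first comparison asked how EpPT1 cells differed from untreated cells. No ribosomal protein gene passed edgeR's test at an adjusted p of 0.05 (0 of 87 members tested, lowest adjusted p 0.991), and neither did any other gene (0% of 14471). DESeq2 called 0 members and 1 gene in all, and limma-voom called 0 members. Without adjustment, 4 members were higher (Rpl23a, Rps28, Rpl28 and Rpl26) and 1 lower (Rps27rt) at p under 0.05, where 3.01% of all genes were higher and 0.919% lower. The median log2 difference was 0.03 over the members and -0.02 over all genes.

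Groups that did not overlap were as rare. Among the members, Rpl35 was higher in every EpPT1 library than in every Ctrl library, and Rpl10, Rpl39 and Rps27rt were lower, against 2.73% of all genes higher and 2.53% lower. Of the 31 core 40S genes, 17 had a log2 difference above 0, with a median of 0.10. Of the 46 core 60S genes, 26 did, with a median of 0.04.

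The count depended on which libraries were in the fit, and most on EpPT1 replicate 1. Without EpPT1 replicate 1, 16 members were higher and 9 lower at an unadjusted p under 0.05, while 7.95% of all genes were higher and 5.33% lower, and still no member passed the adjusted threshold (lowest adjusted p 0.0698 in edgeR's test with Benjamini-Hochberg adjustment). Without Ctrl replicate 1, or without EpPT1 replicate 2 or 3, the count was 2, without Ctrl replicate 2 it was 3 and without Ctrl replicate 3 it was 8. Over these 5 settings, 1.103 to 3.57% of all genes were higher and 0.363 to 1.63% lower.

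The second comparison, EpPT2 against Ctrl, again gave 0 of 87 members past the adjusted threshold (lowest adjusted p 0.376) and 0% of all genes. DESeq2 called 53 genes, with Rpl23a the only member among them, and limma-voom called 0 members. At an unadjusted p under 0.05, 11 members were higher (12.6% of those tested, with 6.88% of all genes) and 10 lower (11.5%, with 5.31% of all genes). The higher members were Rpl23a, Rpl28, Rps28, Rpl26, Rps14, Rps15, Rps19, Rpl18, Rps16, Rplp1 and Rps29, and the lower ones Rps12, Rpl22, Rps26, Rpl6l, Rpl30, Rpl36a, Rpl14, Rps15a, Rpl3 and Rps6.

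Every EpPT2 library lay above every Ctrl library for 21 members and below for 16, together 42.5% of the 87, where 12.3% of all genes lay above and 10.9% below. The members are abundant genes, and among the 2378 genes with a mean of at least 100 CPM the shares were 11.3% above and 16.9% below. The higher and lower members balanced, so that the median log2 difference was -0.02 over the members and -0.03 over all genes. Both subunits held both kinds: in the 40S subunit 8 of 31 lay above and 6 below, and in the 60S subunit 12 of 46 lay above and 9 below. Leaving out Ctrl replicate 1 left 10 members in place of 21 under an unadjusted p of 0.05, with 3.90% of all genes higher and 2.83% lower. Leaving out EpPT2 replicate 2 or 3 left 11, with 3.84 or 3.92% of all genes higher and 1.77 or 1.83% lower.

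Rpl23a, a 60S protein at the exit of the nascent chain, had the largest difference of all members. The gene at chr11:78180932-78183584 (-) had 79.4, 466 and 416 CPM in EpPT1, 480, 465 and 357 CPM in EpPT2 and 57.9, 85.8 and 96.6 CPM in Ctrl. All EpPT2 libraries and EpPT1 replicates 2 and 3 lay well above Ctrl, and EpPT1 replicate 1 lay within it. The log2 difference was 2.44 (SE 0.54, adjusted p 0.376) for EpPT2 and 2.00 (SE 0.53, adjusted p 0.991) for EpPT1, by edgeR's quasi-likelihood test with Benjamini-Hochberg adjustment. Its whole coding sequence is shared with other rows. Summed with its near copies it was 179, 624 and 556 CPM in EpPT1, 612, 610 and 522 CPM in EpPT2 and 149, 187 and 229 CPM in Ctrl. This gave a log2 difference of 1.62 (SE 0.40) for EpPT2.

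Rpl28, whose start with its run of C and T is shown above, lies on the 60S subunit. It had 311, 756 and 759 CPM in EpPT1, 796, 795 and 744 CPM in EpPT2 and 250, 345 and 430 CPM in Ctrl, and EpPT1 replicate 1 again lay within Ctrl. The log2 difference was 1.19 (SE 0.34) for EpPT2 and 0.83 (SE 0.34) for EpPT1. Rps28, a small 40S protein at the mRNA exit, had 95.7, 302 and 277 CPM in EpPT1, 302, 269 and 248 CPM in EpPT2 and 71.3, 122 and 129 CPM in Ctrl. Its groups were placed in the same way, with log2 differences of 1.35 (SE 0.40) for EpPT2 and 1.07 (SE 0.40) for EpPT1.

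Among the 40S proteins that ribosome biogenesis disorders have made well known, Rps14, the gene of the 5q- syndrome in humans, had 751, 1658 and 1375 CPM in EpPT1, 1680, 1436 and 1604 CPM in EpPT2 and 839, 1011 and 836 CPM in Ctrl. Rps19, mutated in Diamond-Blackfan anaemia in humans, had 374, 834 and 746 CPM in EpPT1, 833, 732 and 754 CPM in EpPT2 and 384, 506 and 475 CPM in Ctrl. For both genes EpPT1 replicate 1 was the lowest of the 9 libraries and all EpPT2 libraries lay above Ctrl. Log2 differences for EpPT2 were 0.81 (SE 0.28) for Rps14 and 0.76 (SE 0.29) for Rps19, and both had an adjusted p of 0.376 in edgeR's test with Benjamini-Hochberg adjustment. All EpPT2 libraries also lay above Ctrl for Rps15 (log2 difference 0.74), Rps16 (0.65) and Rps29 (1.05).

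On the lower side, Rps12, a 40S protein, had 1649, 715 and 682 CPM in EpPT1, 717, 716 and 654 CPM in EpPT2 and 1367, 1445 and 1544 CPM in Ctrl. Rps26, a 40S protein at the mRNA exit, had 4833, 2812 and 2335 CPM in EpPT1, 2981, 2557 and 2581 CPM in EpPT2 and 4561, 4323 and 4674 CPM in Ctrl. In both, EpPT1 replicate 1 was the highest of all libraries and the other EpPT1 libraries lay with EpPT2. The log2 difference of EpPT2 was -1.06 (SE 0.32) for Rps12 and -0.74 (SE 0.27) for Rps26, with an adjusted p of 0.376 for each in edgeR's test with Benjamini-Hochberg adjustment.

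Rpl22, a 60S RNA-binding protein, had 533, 324 and 257 CPM in EpPT1, 324, 274 and 267 CPM in EpPT2 and 458, 459 and 591 CPM in Ctrl. Only 31.04% of its coding 50-base stretches are shared with another row, so its counts rest mostly on sequence of its own. The log2 difference was -0.80 (SE 0.28) for EpPT2 and -0.44 (SE 0.28) for EpPT1, and for EpPT1 without its replicate 1 it was -0.80 (SE 0.22). Its paralogue Rpl22l1, which Rpl22 represses in mice, averaged 37.1 ± 14.9 CPM in EpPT1, 40.7 ± 3.55 CPM in EpPT2 and 27.5 ± 11.4 CPM in Ctrl (SD, n = 3 each). The log2 difference of Rpl22l1 was 0.57 (SE 0.36) for EpPT2, and the groups overlapped.

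**Figure D3:**
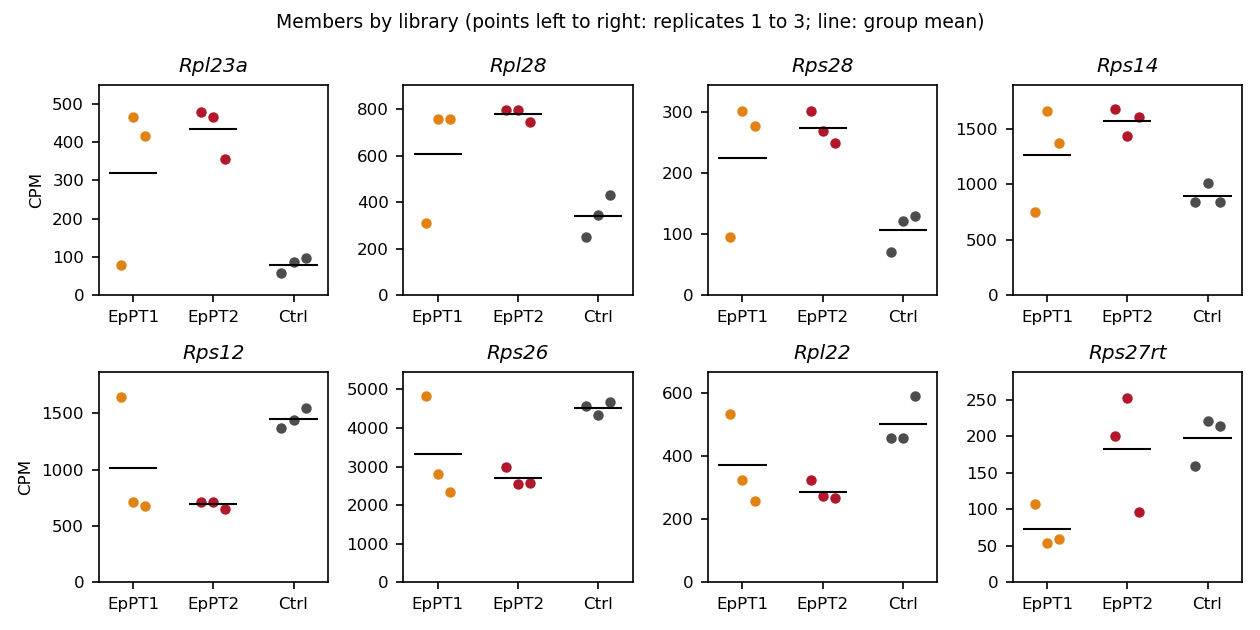
CPM of 8 ribosomal protein genes in each library, with 1 point per replicate and a line at the group mean, on axes that start at 0. Rpl23a, Rpl28, Rps28 and Rps14 are higher in EpPT2 than in Ctrl and Rps12, Rps26 and Rpl22 lower, with EpPT1 replicate 1 near Ctrl in these, while Rps27rt is lowest in EpPT1. No gene passed the adjusted threshold.

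Rps6, the 40S target of the S6 kinases, had 1060, 922 and 817 CPM in EpPT1, 927, 815 and 854 CPM in EpPT2 and 1202, 972 and 1413 CPM in Ctrl. EpPT2 lay below Ctrl without overlap, at a log2 difference of -0.47 (SE 0.21), and EpPT1 overlapped Ctrl at -0.36 (SE 0.21). Rpl3, at the peptidyl transferase centre, had 934, 837 and 639 CPM in EpPT1, 800, 640 and 680 CPM in EpPT2 and 1069, 934 and 975 CPM in Ctrl, a log2 difference of -0.49 (SE 0.21) for EpPT2. Rpl10, which is added late to the 60S subunit, had 1500, 1440 and 1259 CPM in EpPT1, 1415, 1251 and 1277 CPM in EpPT2 and 1521, 1555 and 1878 CPM in Ctrl. It was below Ctrl in all 6 exposed libraries, by -0.24 (SE 0.19) in EpPT1 and -0.33 (SE 0.19) in EpPT2 on the log2 scale, and passed no test.

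The stalk of the 60S subunit recruits translation factors. Rplp0, its base, had 3165, 3148 and 2039 CPM in EpPT1, 3278, 2355 and 2693 CPM in EpPT2 and 2887, 3224 and 2002 CPM in Ctrl, with a log2 difference of 0.04 (SE 0.26) for either exposed group. Rplp1 had 456, 1225 and 824 CPM in EpPT1, 1184, 779 and 788 CPM in EpPT2 and 511, 566 and 505 CPM in Ctrl. Rplp1 was above Ctrl in every EpPT2 library (log2 difference 0.80, SE 0.33), while its partner Rplp2 had a log2 difference of -0.23 (SE 0.22) and overlapping groups.

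Rpl5 and Rpl11 form, with the 5S rRNA, the particle that binds the p53 regulator Mdm2. Rpl5 had 1323, 1063 and 846 CPM in EpPT1, 1066, 977 and 1056 CPM in EpPT2 and 1335, 1236 and 1350 CPM in Ctrl. Rpl11 had 538, 579 and 527 CPM in EpPT1, 555, 516 and 460 CPM in EpPT2 and 494, 510 and 682 CPM in Ctrl. EpPT2 was below Ctrl without overlap for Rpl5 (log2 difference -0.34, SE 0.21), and the groups overlapped for Rpl11 (-0.14, SE 0.20).

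Groups overlapped for other members. Rps3, a 40S protein with 8.09% of its coding 50-base stretches shared, had 1467, 1738 and 1603 CPM in EpPT1, 1664, 1481 and 1592 CPM in EpPT2 and 1482, 1513 and 1642 CPM in Ctrl. Its log2 difference was 0.05 (SE 0.18) for EpPT1 and 0.03 (SE 0.18) for EpPT2. Rpsa, the 40S protein also known as the laminin receptor, had 1542, 1676 and 1173 CPM in EpPT1, 1749, 1269 and 1394 CPM in EpPT2 and 1850, 1548 and 1470 CPM in Ctrl. Relative to the median member of each library, Rpl8, Rps13 and Rps9 varied least, and Rpl23a, Rps27rt, Rps10, Rpl24, Rpl6l and Rps28 varied most. Rpl13a, a 60S protein known from the interferon-γ response of human monocytes, averaged 80.2 ± 14.2 CPM in EpPT1, 67.5 ± 9.66 CPM in EpPT2 and 78.5 ± 7.78 CPM in Ctrl (SD, n = 3 each). Gm45713, annotated as protein_coding, holds 97.5% of the coding 50-base stretches of Rpl13a.

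**Figure D4:**
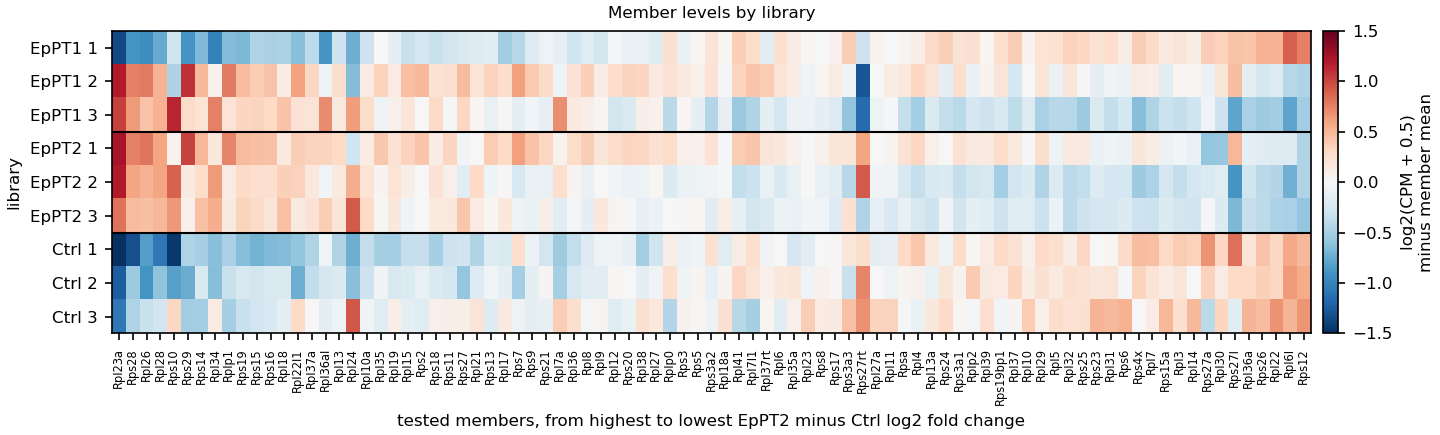
Log2(CPM + 0.5) of the 87 tested ribosomal protein genes minus the gene's mean over the 9 libraries, with libraries in rows and genes ordered from the highest to the lowest log2 difference of EpPT2 against Ctrl. At both ends the row of EpPT1 replicate 1 looks like Ctrl and the rows of EpPT1 replicates 2 and 3 like EpPT2.

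EpPT1 replicate 1 was placed with Ctrl across this set, and this was not particular to the members. A chi-square between the counts of 2 libraries was averaged over the tested genes with a minimum count in the pair. Lower values mean closer libraries. For EpPT1 replicate 1 it was 41.1, 16.0 and 120 with the Ctrl libraries, and 81.8 and 161 with EpPT1 replicates 2 and 3. With the EpPT2 libraries it was 79.1, 136 and 133. Between EpPT1 replicate 2 and EpPT2 replicate 1 it was 5.95, and between EpPT1 replicate 3 and EpPT2 replicate 2 it was 8.17. The chi-square also went with the mitochondrial share, at 174 between Ctrl replicates 1 and 3 and 154 between EpPT1 replicates 2 and 3. Among libraries of low share, and among those of high share, EpPT1 replicate 1 was nearer to Ctrl than to exposed libraries. Of the 37 members without overlap between EpPT2 and Ctrl, EpPT1 replicate 1 was nearer the Ctrl mean for 36, EpPT1 replicate 2 was nearer the EpPT2 mean for 33, and EpPT1 replicate 3 for 36. The genes were chosen on EpPT2 and Ctrl, and EpPT1 was not used to choose them. These counts were not taken over all genes without overlap. Without EpPT1 replicate 1, the log2 difference of EpPT1 against Ctrl was -1.06 in place of -0.52 for Rps12, -0.82 in place of -0.44 for Rps26 and 0.75 in place of 0.49 for Rps14. For Rps27l it was -0.42 in place of -0.24. For Rpl41 (-0.09), Rplp0 (-0.07) and Rps3 (0.10) it lay within 1 standard error of 0, as with all libraries. The EpPT1 and EpPT2 comparisons share the Ctrl libraries, so their fold changes are given side by side and not set against each other.

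Of the 15 paralogues and copies, 9 were tested. Rps27rt at chr9:114982366-114982739 (-) is an expressed copy of Rps27, at chr3:90212522-90213651 (-), and both encode the same zinc-finger 40S protein. The first 120 bases of the coding sequence are the same in Rps27 and Rps27rt, while the p53-inducible paralogue Rps27l differs at 28 of them, in capitals, and at 60 of 252 in all.
Rps27: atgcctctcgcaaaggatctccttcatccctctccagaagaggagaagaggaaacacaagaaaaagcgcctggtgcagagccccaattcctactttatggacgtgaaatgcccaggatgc
Rps27l: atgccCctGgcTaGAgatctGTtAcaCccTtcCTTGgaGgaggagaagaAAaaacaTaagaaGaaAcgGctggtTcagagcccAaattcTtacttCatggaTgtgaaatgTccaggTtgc

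Rps27rt had 107, 54.3 and 59.4 CPM in EpPT1, 201, 252 and 97.0 CPM in EpPT2 and 160, 221 and 214 CPM in Ctrl. Rps27 had 312, 507 and 452 CPM in EpPT1, 353, 324 and 486 CPM in EpPT2 and 297, 244 and 386 CPM in Ctrl. Rps27rt was below Ctrl in every EpPT1 library, and EpPT2 replicate 3 was below Ctrl as well. For EpPT1 against Ctrl the log2 difference of Rps27rt was -1.43 (SE 0.38, adjusted p 0.991), and for EpPT2 against EpPT1 it was 1.32 (SE 0.38, adjusted p 0.9999), by edgeR's quasi-likelihood test with Benjamini-Hochberg adjustment. With the near copies summed these came to -0.03 and 0.20, and the pair together held 419, 562 and 512 CPM in EpPT1, 554, 577 and 583 CPM in EpPT2 and 457, 465 and 600 CPM in Ctrl.

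Rps27l at chr9:66946086-66949516 (+) had 188, 193 and 80.6 CPM in EpPT1, 197, 75.5 and 87.3 CPM in EpPT2 and 247, 172 and 125 CPM in Ctrl. The groups overlapped, with a log2 difference of -0.24 (SE 0.44) for EpPT1 and -0.60 (SE 0.44) for EpPT2. Libraries with a low mitochondrial share all lay above those with a high share. Rpl6l, annotated as a pseudogene, had 327, 131 and 101 CPM in EpPT1, 153, 106 and 125 CPM in EpPT2 and 261, 273 and 251 CPM in Ctrl. It lay below Ctrl in every EpPT2 library, at -1.03 (SE 0.39) on the log2 scale. Summed with its near copies it was -0.27, but these include Rpl6, which averaged 1180 CPM against 192 CPM for Rpl6l.

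Other families were measured through their common member. Rpl7 averaged 2255 ± 560 CPM in EpPT1, 1939 ± 421 CPM in EpPT2 and 2689 ± 339 CPM in Ctrl (SD, n = 3 each), and EpPT2 lay below Ctrl without overlap at a log2 difference of -0.47 (SE 0.25). Its relative Rpl7l1 averaged 123 ± 36.1 CPM in EpPT1, 111 ± 33.8 CPM in EpPT2 and 114 ± 30.02 CPM in Ctrl, with overlapping groups. Rpl36a, on the 60S subunit, had 682, 459 and 363 CPM in EpPT1, 461, 413 and 400 CPM in EpPT2 and 584, 627 and 726 CPM in Ctrl, and EpPT2 was below Ctrl in every library (log2 difference -0.60, SE 0.25). Its paralogue Rpl36al averaged 2.57 ± 1.62 CPM in EpPT1, 2.97 ± 0.521 CPM in EpPT2 and 2.17 ± 0.192 CPM in Ctrl. For Rpl36al every EpPT2 library lay above every Ctrl library, at a log2 difference of 0.45 (SE 0.49).

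The X-linked 40S gene Rps4x averaged 1546 ± 510 CPM in EpPT1, 1344 ± 347 CPM in EpPT2 and 1858 ± 295 CPM in Ctrl (SD, n = 3 each), with overlapping groups. Its values were 1667 to 2107 CPM in the libraries with a low mitochondrial share and 986 to 1531 CPM in those with a high share. Rps27a, made as a fusion of ubiquitin and a 40S protein, averaged 661 ± 125 CPM in EpPT1, 519 ± 98.7 CPM in EpPT2 and 752 ± 265 CPM in Ctrl, a log2 difference of -0.53 (SE 0.29) for EpPT2 with overlapping groups. Rpl39, a small 60S protein, had 229, 232 and 180 CPM in EpPT1, 246, 190 and 197 CPM in EpPT2 and 244, 246 and 268 CPM in Ctrl. All EpPT1 libraries of Rpl39 lay below all Ctrl libraries (log2 difference -0.24, SE 0.20), and EpPT2 overlapped Ctrl. Rps19bp1, no ribosomal protein itself, averaged 24.4 ± 4.202 CPM in EpPT1, 20.7 ± 6.14 CPM in EpPT2 and 25.2 ± 2.87 CPM in Ctrl.

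The 6 members left untested for low counts included tissue-restricted paralogues, which were at or near 0. Rpl3l, known from muscle, had 0 counts in each EpPT1 library, 1, 1 and 7 in EpPT2 and 0, 5 and 2 in Ctrl. Rpl10l, known from testis, had 0 counts in all 9 libraries, and a count of 0 allows up to 3 counts, which is 0.174 to 0.206 unscaled CPM and covers counting error only. Rps12l1 also had 0 counts in all libraries, but 100% of its 50-base stretches are found in Rps12, so that this limit does not bound its expression. Rpl39l had 3 counts in Ctrl replicate 1 and 0 elsewhere, and Rps4l 1 count in Ctrl replicate 2 and 0 elsewhere. The annotated pseudogene Rpl32l had 2, 11 and 3 counts in EpPT1, 14, 8 and 2 in EpPT2 and 4, 9 and 4 in Ctrl, with overlapping groups.

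The third comparison set EpPT2 against EpPT1. Again 0 of 87 members passed the adjusted threshold (lowest adjusted p 0.9999 in edgeR's test with Benjamini-Hochberg adjustment) and 0% of all genes, and DESeq2 and limma-voom called 0 members. At an unadjusted p under 0.05, 1 member, Rps27rt, was higher and 0 were lower, where 0.0691% of all genes were higher and 0.145% lower. Rpl19 was the only member above EpPT1 without overlap and 0 were below, against 1.26% and 1.2% of all genes. The median log2 difference over the members was -0.005, against -0.01 over all genes. Without EpPT1 replicate 3, 1 member was higher and 3 lower of the 88 then tested, while 2.92% of all genes were higher and 1.85% lower.

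The GC content of the mRNA went with these differences. The 11 members that were higher in EpPT2 than in Ctrl had a median GC of 54.8%, the 10 that were lower 49.3% and the other 66 51.4%. Over the 87 members, GC content and log2 difference had Pearson's r of 0.34 and Spearman's rho of 0.44 for EpPT2 against Ctrl, and 0.36 and 0.49 for EpPT1 against Ctrl. Over the 14458 tested genes with a known GC content they were 0.58 and 0.62 for EpPT2 and 0.54 and 0.60 for EpPT1. For all genes, and for the correction below, GC content was that of the gene's longest transcript. For the members it was that of a chosen main transcript, so these values are not like for like. The relation is across genes, which share libraries and are not independent.

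With the GC trend of each library removed, r over the members was -0.04 for EpPT2 and 0.05 for EpPT1. The log2 difference of EpPT2 then came to 0.31 for Rps14 and 0.97 for Rpl28, and 9 members were higher and 10 lower at an unadjusted p under 0.05, in place of 11 and 10. The shares of all genes were then 2.77% higher and 3.39% lower, in place of 6.88% and 5.31%. Among the 13 members that share under 50% of their coding stretches, r with GC was 0.70 for EpPT2 and 0.74 for EpPT1. The part of GC content in the members' differences was not tested further.

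**Figure D5:**
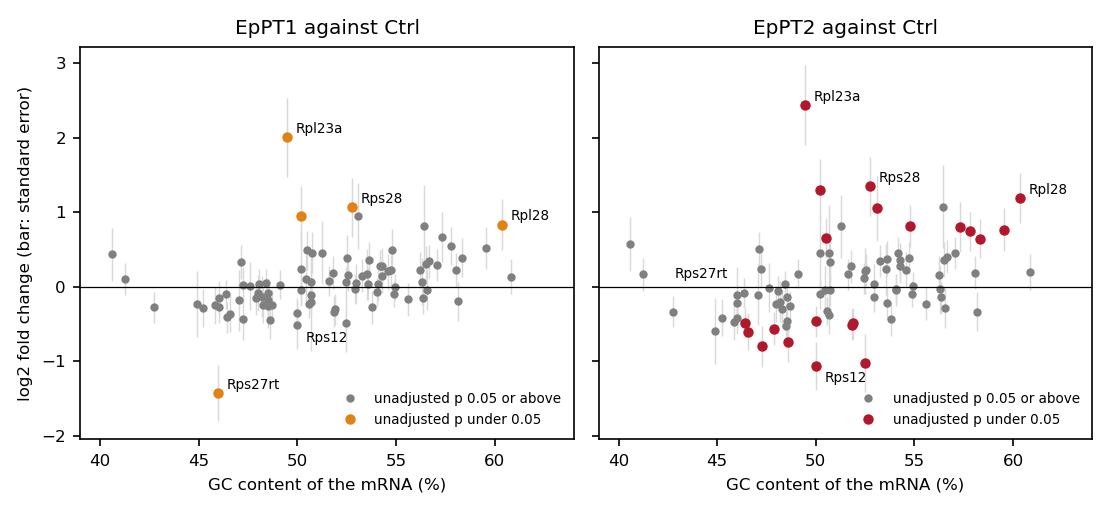
Log2 difference from Ctrl, with bars of 1 standard error, against GC content of the mRNA (percent) for the 87 tested ribosomal protein genes in EpPT1 (left) and EpPT2 (right), coloured where the unadjusted p was under 0.05. Genes of higher GC tend to lie higher, with Pearson's r of 0.36 for EpPT1 and 0.34 for EpPT2.

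The tract as searched for here occurs in 45.8% of all genes, so splitting the members by it cannot separate TOP mRNAs from others. The 53 tested members with the tract had a median log2 difference of 0.06 for EpPT1 and -0.04 for EpPT2 against Ctrl, and the 11 without it 0.04 and 0.03. Among 17 other tested mRNAs known to carry a TOP start, including Eef1a1, Eef2 and Tpt1, 0 were higher and 2 lower in EpPT2 than in Ctrl at an unadjusted p under 0.05, with a median of -0.19. In EpPT1 against Ctrl the numbers were 0 and 0, with a median of -0.12.

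Gene lists beside the members are counted in the same way, at an unadjusted p under 0.05 and with no gene past the adjusted threshold. For all genes these shares were 6.88% higher and 5.31% lower in EpPT2, and 3.01% and 0.919% in EpPT1. Among 21 genes of mTORC1 and TOP control, 3 had a higher and 4 a lower value in EpPT2 than in Ctrl at that p, with a median of -0.14, and 1 had a higher value in EpPT1. Larp1, the TOP-binding protein, had 200, 261 and 252 CPM in EpPT1, 247, 237 and 239 CPM in EpPT2 and 184, 185 and 178 CPM in Ctrl. All 6 exposed libraries lay above Ctrl, and the log2 difference was 0.40 for EpPT2. The 79 tested mitochondrial ribosomal protein genes had 8 higher and 1 lower at that p in EpPT2 than in Ctrl (median -0.02), and 3 and 0 in EpPT1 (median 0.11). The 55 tested initiation factors had 1 higher and 3 lower at that p in EpPT2 (median -0.12), and 0 and 0 in EpPT1 (median -0.07).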

How the data were processed

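The authors deposited 1 table of raw gene counts, which holds a column for each of the 9 HC11 RNA-seq libraries. CPM values scale these counts to the library's total after TMM scaling. The submitters' processing notes name Bowtie 0.12.2 and mm8. The table's coordinates equal those of GENCODE mouse release M21 on GRCm38 for 53499 of 54409 gene IDs (98.3%), so GRCm38 coordinates are printed. The sources used here do not give the counter or its strand setting. For 25 members, reads may belong in part to a gene on the other strand.

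Libraries were grouped by title. All 9 libraries entered 1 fit of edgeR 4.0.16 under R 4.3.3 (TMM scaling, filterByExpr, quasi-likelihood test, two-sided, 6 residual degrees of freedom) over the whole table. Of 28724 genes with a count, 14471 were tested, with Benjamini-Hochberg adjustment over all of them and a threshold of 0.05. The biological coefficient of variation was 39.3%. Levels between genes are per kb of mRNA. Shared sequence was measured as the percent of a gene's coding stretches of 50 bases found in another gene of the annotation. Other members and rows with a pseudogene biotype that share at least 20% were summed as near copies. Sharing rows of other biotypes were left out, such as Rps12-ps3, annotated as protein_coding with 100% of the stretches of Rps12. Coding sequences are from GENCODE M21 and starts from RefSeq.

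Alternatives were DESeq2 1.42.0 (size factors and test), limma-voom (limma 3.58.1), other filters, the replicate number as a block, the mitochondrial share as a covariate, the 5 libraries with a low mitochondrial share, a GC correction and leaving out each library. Summing near copies was added after the data were seen. The scripts were tested on simulated data. Members and lists were chosen with earlier results of these data known. Named members were the 4 with the smallest p in each direction of each comparison, the highest and lowest levels, the most and least variable, and a set by role; other members named in counts were chosen after their values were seen. No molecular identifiers are recorded, so floors cover counting error only.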

Additional observations from a re-analysis of the deposited data

How the results depend on the processing

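Named genes had 504 alternative values, of which 4 reversed and 7 passed the adjusted threshold. Rpl26, summed with its near copies, reversed to -0.44 in EpPT1 and -0.61 in EpPT2 against Ctrl. Leaving out single libraries gave -0.77 (EpPT1 replicate 3) to 0.00046 (EpPT1 replicate 1, reversed) for Rps12 and -0.84 to 0.15 for Rpl6l in EpPT2 against EpPT1. The cause was not tested. With no filter on low counts, members called were 2 (Rpl23a and Rps27rt) in EpPT1 and 3 (Rpl28, Rpl23a and Rps28) in EpPT2 against Ctrl. Of all 28724 genes, 32 and 268 were called there. In EpPT2 against Ctrl, DESeq2 called 1 (Rpl23a) among 53 genes. Leaving out libraries gave 0 to 1 (Rpl23a, adjusted p 0.0463 in edgeR's test without EpPT1 replicate 1, where 2 genes were called). The next counts are of members at an unadjusted p under 0.05, with the percent of all genes higher and lower in brackets. In EpPT1 against Ctrl the count was 9 with no filter (3.08 and 0.919%) and 3 with limma-voom (1.63 and 1.18%). With the mitochondrial share as a covariate it was 11 (8.77 and 4.87%). Without 1 library it was 2 to 25 (1.103 to 7.95 and 0.363 to 5.33%). In EpPT2 against Ctrl the count was 10 to 27 without 1 library (3.84 to 9.002 and 1.77 to 7.41%). With the mitochondrial share as a covariate, 17 members were higher and 14 lower (13.1 and 11.3%). The 5 libraries with a low mitochondrial share hold only 1 EpPT2 library. There the median log2 difference of EpPT2 against Ctrl was 0.18 over the members and -0.017 over all genes. In EpPT2 against EpPT1 the count was 2 with no filter (0.494 and 0.418%) and 0 with near copies summed (0.0631 and 0.133%). Without 1 library it was 1 to 4 (0.0335 to 2.92 and 0.0739 to 1.85%). With a replicate block the counts were 7 (4.85 and 1.69%), 26 (12.0 and 9.14%) and 1 (0.822 and 0.373%), and 0 members were called. The labels do not say whether replicate numbers pair the libraries. Correlations of same-numbered deviations from the group means ran from -0.712 to 0.778. The lowest joined a library with a low and one with a high mitochondrial share, so these correlations cannot decide on pairing. The differences in the share of counts moved by less than the spread under the 9 alternatives run for each.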

Other observations

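Among the 297 rows named as pseudogenes of members, 179 had a count, 95 were tested and 10 averaged 100 CPM or more. At an unadjusted p under 0.05, 13 were higher and 13 lower in EpPT2 than in Ctrl, where 6.88% of all genes were higher and 5.31% lower. Without overlap, 22 lay above and 19 below Ctrl, where 12.3% of all genes lay above and 10.9% below. Rpl17-ps3 on chromosome 12 had 476, 250 and 236 CPM in EpPT1, 250, 258 and 285 CPM in EpPT2 and 586, 478 and 832 CPM in Ctrl. EpPT2 lay below Ctrl without overlap, and so did EpPT1. Gm4332, a copy of Rps20, had 138, 67.1 and 46.0 CPM in EpPT1, 68.6, 53.6 and 53.4 CPM in EpPT2 and 134, 134 and 139 CPM in Ctrl, with EpPT1 replicate 1 at the Ctrl level.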
